A study of Homo sapiens with 30 samples.

Results

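GREM1 and 9 other genes of the bone morphogenetic protein (BMP) pathway were followed by precision run-on sequencing through 15 treatment groups of A549 cells. The 10 genes were taken by name from the 58780 gene rows of the deposited count table. They were the secreted antagonist GREM1, the ligands BMP2 and BMP4, the extracellular modulator BMPER, the signal transducer SMAD9, the inhibitory SMADs SMAD6 and SMAD7, and the target genes ID1, ID2 and ID3. All 10 passed the filter on low counts and were among the 22919 genes tested. The set was chosen by measured values, the low level of GREM1 after 3 h of dexamethasone (Dex) against untreated cells, so values of the 10 genes in Dex at 3 h against untreated cells are a description, with no p-value. Comparisons of GREM1 that reuse those libraries are marked as such.

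BMP ligands bind receptor serine/threonine kinases, and the activated receptors phosphorylate the receptor-regulated SMADs of the BMP branch, SMAD9 among them. With SMAD4 these enter the nucleus and switch on targets, of which the ID genes are the best known. SMAD6 and SMAD7 are targets as well, and their products block the pathway from inside the cell. GREM1 (gremlin 1) acts from outside, where it binds BMP2 and BMP4 and keeps them from their receptors. BMPER also binds BMPs and can either dampen or help their signal. In the lung the pathway is known from airway development, and GREM1 from fibrosis.

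A549 is a human lung adenocarcinoma line. In precision run-on sequencing (PRO-seq), polymerases already engaged on DNA add a labelled nucleotide, so the reads report transcription in progress and not stored RNA. Dex, a synthetic glucocorticoid, was used at 100 nM. Both inhibitors were used at 1 µM: GSK591 blocks PRMT5, which places symmetric methyl marks on arginine, and MS023 blocks the type I enzymes, which place asymmetric ones. All groups, untreated cells included, carried 0.01% DMSO. The 15 groups of 2 libraries each were untreated cells (a 15 min vehicle control by its label), Dex for 15 min, Dex for 3 h, Dex given together with GSK591 or with MS023 for 3 h, GSK591 or MS023 alone for 2, 4 or 7 days, and 7 days of either inhibitor and then Dex (15 min or 3 h). The untreated group is the 1 control for all times. The labels do not say that replicates were separate cultures, so p-values measure only the spread between these samples, which may be technical.

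The 30 libraries had 8441211 to 13069598 counts, of which mitochondrial genes took 58.7% to 78.7%. Replicates correlated at r = 0.924 to 0.984 across 11117 genes, which are not independent replicates, and no pair of replicates agreed within sampling noise. Levels are CPM, a gene's count scaled to library size by the trimmed mean of M-values (TMM). The 8 A549 markers summed to 836 to 1640 CPM per library, against 3.42 to 12.0 CPM for 7 fibroblast markers, 0.366 to 2.75 CPM for 4 endothelial markers and 1.12 to 6.72 CPM for 4 leukocyte markers. No marker was at 0 in every library. As a check of the Dex label, the mean of 2 libraries (± SD) went from 5.40 ± 0.228 to 40.3 ± 0.317 CPM for FKBP5 between untreated cells and 3 h of Dex, from 11.5 ± 0.357 to 42.5 ± 3.08 CPM for PER1 and from 15.2 ± 2.45 to 113 ± 1.33 CPM for TSC22D3, all glucocorticoid receptor targets. The mitochondrial share was 73.3% to 76.0% in untreated cells and 58.7% to 59.6% after 7 days of MS023. Scaling by total counts in place of TMM moved the median gene up by 1.01 log2 units in that comparison, so every value against untreated cells or GSK591 that involves MS023 is relative to the median gene. Values under that scaling are given beside many of the results that it moves.

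Per kilobase of exon, untreated levels covered a wide range. Which feature was counted is not given in the sources used here, and over whole genes the divisor would be larger (for SMAD6 80621 in place of 8563 bases, for BMPER 252049 in place of 7919), so these levels hold only for counts over exons. ID1 stood at 137 CPM per kilobase, ID3 at 80.8, ID2 at 42.0, SMAD6 at 15.5 and SMAD7 at 6.67. The extracellular genes were far lower, with BMP4 at 1.78, GREM1 at 0.793, BMPER at 0.375 and BMP2 at 0.177 CPM per kilobase, and SMAD9 stood at 0.168. The depth was as uneven: ID1 had 787 to 2265 counts per library, SMAD6 406 to 3030, GREM1 8 to 501, BMP4 31 to 304, BMPER 9 to 64, SMAD9 6 to 27 and BMP2 3 to 16.

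Promoter letters are shown for GREM1, whose level varied most, and for SMAD6, whose window holds a rare palindrome. RefSeq (GRCh38.p14) gave 15 windows for 9 of the 10 genes. Each run is the 250 bases upstream of a transcription start, 5′ to 3′ on the gene's strand, with motif matches in capitals. The motifs, searched on both strands, were GGCGCC (a GC-rich element bound by BMP-activated SMADs), GTCTAGAC (the SMAD-binding palindrome) and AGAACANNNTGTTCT (a glucocorticoid response element). They share no bases in these windows.

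GREM1, chr15:32717754-32718003, plus strand: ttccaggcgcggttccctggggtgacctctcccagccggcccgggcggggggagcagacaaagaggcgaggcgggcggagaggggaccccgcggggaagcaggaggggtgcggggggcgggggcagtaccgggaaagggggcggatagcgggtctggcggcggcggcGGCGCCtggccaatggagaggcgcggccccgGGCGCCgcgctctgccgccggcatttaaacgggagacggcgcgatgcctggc

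SMAD6, chr15:66701986-66702235, plus strand: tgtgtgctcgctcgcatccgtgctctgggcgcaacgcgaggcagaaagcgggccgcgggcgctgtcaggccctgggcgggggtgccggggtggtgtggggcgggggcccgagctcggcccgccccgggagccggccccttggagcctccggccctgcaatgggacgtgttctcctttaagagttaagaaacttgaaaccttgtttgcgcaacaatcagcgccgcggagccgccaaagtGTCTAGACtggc

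In the GREM1 window GGCGCC occurs at 83 and 52 bases before the start. Of 35116 windows of this length 16.4% hold that motif, and 1 of the 3 BMP4 windows and both BMPER windows hold it too. The other RefSeq window of GREM1 (chr15:32718234-32718483) holds none of the motifs, nor do the other BMP4 windows. In the SMAD6 window GTCTAGAC lies 12 bases before the start, and 0.182% of windows hold it. The glucocorticoid element is in none of the 15 windows and in 0.00285% of all windows. A match is only a description of the letters.

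GREM1 (ENSG00000166923.10, chromosome 15, 32717974 to 32745107, plus strand of GRCh38) was lowest after Dex for 3 h and highest in cells kept in MS023. The untreated libraries held 106 and 113 GREM1 counts, or 11.8 and 11.4 CPM. After 15 min of Dex they held 13.3 and 12.1 CPM, and after 3 h 1.17 and 0.977 CPM, which is 11 and 8 counts. Both libraries at 3 h thus lie far below those at 15 min and the untreated ones. The fitted difference at 3 h was -3.41 ± 0.295 from untreated cells (log2, SE), or 10.6-fold lower, and -3.54 ± 0.289 from Dex for 15 min, which reuses the Dex 3 h libraries. In a whole culture, fewer transcribing cells and less transcription per cell cannot be told apart. A lincRNA on the opposite strand, AC090877.2, shares 188 exonic bases (1.29%) with GREM1, and whether counting used strand is not given in the sources used here.

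GREM1 fell with 3 h of Dex also in libraries that played no part in choosing it. After 7 days of GSK591 it stood at 6.16 and 6.30 CPM, and adding Dex for 3 h took it to 1.65 and 1.83 CPM. That is a 3.56-fold fall (log2 -1.83 ± 0.300, adjusted p = 1.06e-05). Adjusted p-values come from edgeR's quasi-likelihood fit over all genes, by Benjamini-Hochberg, unless DESeq2 is named. After 7 days of MS023 it stood at 29.8 and 22.7 CPM, and Dex for 3 h took it to 6.08 and 3.69 CPM. That fall was 5.36-fold (log2 -2.42 ± 0.184, adjusted p = 8.71e-15). In neither background do the libraries with and without Dex overlap. The Dex response differed from that without inhibitor by 1.58 ± 0.475 for GSK591 and 0.99 ± 0.389 for MS023 on the log2 scale. Both values contain the comparison that chose the gene and are a description. The authors' deposited fold changes of GREM1 from untreated cells are -3.05 for Dex at 3 h, -0.57 for GSK591 and -3.36 for GSK591 then Dex. The fall after GSK591 is thus nearer to that without inhibitor there than in the counts.

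At 15 min of Dex no fall of GREM1 was seen. The log2 differences were 0.13 ± 0.188 without inhibitor (with no p, since the untreated libraries served to choose the gene), 0.43 ± 0.227 after GSK591 (adjusted p = 0.401) and 0.51 ± 0.152 after MS023 (adjusted p = 0.0661). Neither tested difference passed, though that after MS023 did pass in an alternative run. The Dex libraries were the higher ones in all 3 backgrounds. Their levels were 9.43 and 7.60 CPM after GSK591 and 38.4 and 36.5 CPM after MS023, the latter the highest of the 15 groups.

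With the inhibitors alone GREM1 lay on opposite sides of the untreated level. GSK591 gave 7.93 and 6.67 CPM at 2 days, 2.98 and 4.71 CPM at 4 days and 6.16 and 6.30 CPM at 7 days. MS023 gave 28.0 and 23.9 CPM at 2 days, 26.4 and 27.0 CPM at 4 days and 29.8 and 22.7 CPM at 7 days. Every GSK591 library lies below both untreated libraries and every MS023 library above them. Against untreated cells, whose libraries also served to choose the gene, the differences are a description, with no p. With GSK591 they were -0.67 ± 0.209, -1.59 ± 0.223 and -0.89 ± 0.215 log2 units at 2, 4 and 7 days. With total-count scaling these were -0.38, -1.18 and -0.92. The value at 2 days ran from -0.79 to -0.55 with 1 library left out. With MS023 the differences were 1.16 ± 0.175, 1.20 ± 0.172 and 1.18 ± 0.172, and with total-count scaling 1.84 and 1.95 at 2 and 4 days and above both at 7 days.

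Compared directly, with neither untreated nor Dex libraries among those compared, GREM1 was lower with GSK591 than with MS023 at each time. The difference was 3.56-fold at 2 days (log2 -1.83 ± 0.192, adjusted p = 4.54e-09), 6.95-fold at 4 days (-2.80 ± 0.201, adjusted p = 6.61e-15) and 4.21-fold at 7 days (-2.07 ± 0.194, adjusted p = 3.64e-11). These 3 calls held in every alternative run. The mitochondrial share of counts also differed between these groups, at 68.5% to 78.7% with GSK591 and 58.7% to 66.1% with MS023, and its part in the result was not tested. With total counts as the only scaling the 3 differences were -2.22, -3.13 and -3.12. The summed markers of fibroblasts, a cell type that makes GREM1 in tissue, were 8.71 to 10.5 CPM at 7 days of MS023 and 4.45 to 5.94 CPM in untreated cells. At 2 days of MS023 they were 3.42 to 3.69 CPM. Of these 7 markers 3 passed the filter on low counts, and the part of such cells in the GREM1 levels was not tested.

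An inhibitor added only for the 3 h of Dex gave levels between those of Dex alone and of untreated cells. Dex with GSK591 gave 1.94 and 1.77 CPM, and Dex with MS023 gave 2.08 and 4.01 CPM. Against Dex alone, whose libraries chose the gene, the differences were 0.77 ± 0.411 and 1.51 ± 0.370 (log2). For 7 days of inhibitor before Dex they were 0.69 ± 0.423 with GSK591 and 2.17 ± 0.326 with MS023. In the authors' deposited fold changes GREM1 with GSK591 then Dex lies below Dex alone, at -3.36 against -3.05 from untreated cells. Ordered by mean, the groups ran from 37.4 CPM (MS023, then Dex for 15 min) to 1.07 CPM (Dex for 3 h), a ratio of 34.9. Neighbours in this order overlapped among the 3 groups with MS023 alone, between GSK591 then Dex for 15 min and GSK591 for 2 days, among MS023 then Dex for 3 h, GSK591 for 4 days and Dex with MS023, and between Dex with GSK591 and GSK591 then Dex for 3 h. All other neighbours were separate.

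**Figure D1:**
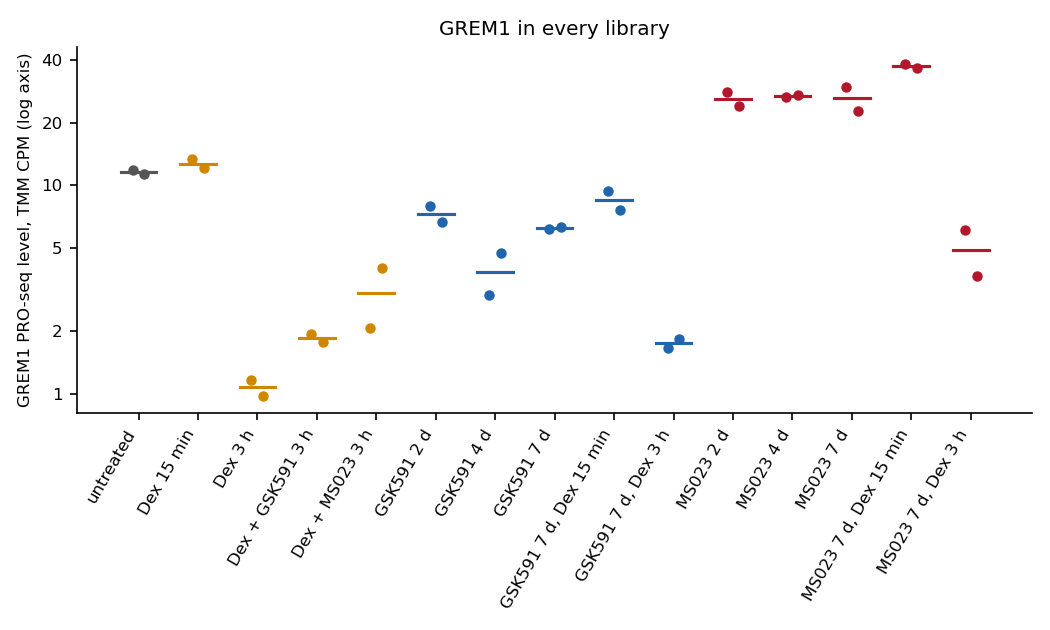
GREM1 level (TMM CPM) in each of the 15 groups, with a point for each library and a line for the mean of 2. The 8 libraries with MS023 and without 3 h of Dex lie between 22.7 and 38.4 CPM, and both Dex 3 h libraries at 1.17 CPM or below.

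BMP4 (chromosome 14, 53949736 to 53958761, minus strand), a ligand that GREM1 binds, rose with both inhibitors. Untreated libraries held 5.00 and 5.94 CPM. GSK591 gave 11.8 and 7.47 CPM at 2 days, 9.60 and 12.0 CPM at 4 days and 16.9 and 19.7 CPM at 7 days, and MS023 gave 12.2 and 11.7 CPM, 13.7 and 15.5 CPM and 21.5 and 19.6 CPM at the same times. All 12 inhibitor libraries lie above both untreated ones, and those at 7 days above those at 2 and 4 days. The log2 rise was 0.80 ± 0.215, 0.98 ± 0.205 and 1.73 ± 0.199 with GSK591 (adjusted p = 0.0179, 0.000446 and 6.74e-09) and 1.12 ± 0.202, 1.41 ± 0.194 and 1.90 ± 0.189 with MS023 (adjusted p = 0.000103, 3.91e-07 and 1.91e-10). At 7 days these rises are 3.32-fold and 3.74-fold. With total-count scaling the rises with MS023 were 1.79, 2.15 and 2.92 log2 units. In the TMM scaling GSK591 and MS023 did not differ past the threshold, and the 95% interval of their difference at 7 days ran from -0.51 to 0.16 log2 units. With total-count scaling BMP4 was lower with GSK591 at 4 days (-0.77, adjusted p = 0.0453) and 7 days (-1.23, adjusted p = 1.53e-05). The call at 2 days of GSK591 was lost without replicate 1 of the untreated cells (adjusted p = 0.196), without replicate 2 of the untreated cells (adjusted p = 0.06) and without replicate 1 of GSK591 for 2 days (log2 0.45, adjusted p = 0.432).

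Dex lowered BMP4 in cells kept in an inhibitor. After MS023 it fell to 11.4 and 12.7 CPM at 15 min (log2 -0.77 ± 0.164, adjusted p = 0.00309) and to 8.42 and 10.7 CPM at 3 h (-1.10 ± 0.167, adjusted p = 1.73e-06). After GSK591 it stood at 12.3 and 12.9 CPM at 15 min (-0.53 ± 0.179, adjusted p = 0.124) and fell to 11.8 and 11.9 CPM at 3 h (-0.62 ± 0.180, adjusted p = 0.0173). In cells without inhibitor it held 3.06 and 4.50 CPM at 15 min, below both untreated libraries (-0.54 ± 0.241, adjusted p = 0.537). That value is near the one after GSK591, and whether the responses at 15 min differ was not tested. Without inhibitor the libraries held 5.42 and 4.76 CPM at 3 h. These 3 h libraries overlap the untreated ones, with a difference of -0.10 ± 0.234 (0.048 with total-count scaling). The Dex response at 3 h differed from that without inhibitor by -1.001 ± 0.288 for MS023 and -0.52 ± 0.296 for GSK591, a description since both contain Dex at 3 h against untreated cells. Even with Dex, BMP4 was above Dex alone, by 1.21 ± 0.211 with GSK591 (adjusted p = 3.62e-05) and 0.90 ± 0.208 with MS023 (adjusted p = 0.00223; 1.76 with total-count scaling). The fall at 15 min after MS023 was lost without replicate 1 of MS023 for 7 days (adjusted p = 0.1), without replicate 1 of MS023 then Dex for 15 min (adjusted p = 0.126) and with total-count scaling (adjusted p = 0.0687), and that at 3 h after GSK591 without replicate 2 of GSK591 for 7 days (adjusted p = 0.185), without replicate 1 of GSK591 then Dex for 3 h (adjusted p = 0.0974), without replicate 2 of GSK591 then Dex for 3 h (adjusted p = 0.0954), with total-count scaling (log2 -0.41, adjusted p = 0.406) and with DESeq2 (adjusted p = 0.0803). The excess of MS023 with Dex over Dex alone was lost without replicate 2 of Dex for 3 h (adjusted p = 0.0505) and without replicate 2 of MS023 then Dex for 3 h (adjusted p = 0.0726).

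BMP2 (chromosome 20, 6767664 to 6780280, plus strand), the other ligand, was near the limit of counting. It had 3 to 16 counts per library, its group means ran from 0.412 to 1.26 CPM, and in the TMM scaling it passed no test in the 22 comparisons. With total-count scaling it passed at 4 days of MS023 against untreated cells (log2 1.38, adjusted p = 0.0445). Smaller changes of BMP2 were not detectable at this depth: for Dex at 3 h after GSK591 the difference was 0.34 ± 0.524 log2 units.

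BMPER (chromosome 7, 33904308 to 34156356, plus strand) separated the inhibitors at 7 days in the opposite sense to GREM1. Untreated libraries held 3.23 and 2.72 CPM. With MS023 the levels were 1.47 and 1.20 CPM at 2 days, 0.995 and 0.783 CPM at 4 days and 1.42 and 1.52 CPM at 7 days, all below the untreated libraries. The difference passed the test at 4 days (log2 -1.72 ± 0.409, adjusted p = 0.0023) and missed it at 2 days (adjusted p = 0.0568) and 7 days (adjusted p = 0.0649), where the difference was -1.01 and, with total-count scaling, 0.0095. The call at 4 days was lost with total-count scaling (log2 -0.98, adjusted p = 0.0692). In the authors' deposited tables, where BMPER has a mean normalized count of 122, it passed at 2, 4 and 7 days (-1.33, -1.43 and -1.22). With GSK591 the differences from untreated cells were -0.25 and -0.46 at 2 and 4 days, and neither passed. With GSK591 for 7 days the replicates lay apart, at 7.44 and 3.35 CPM. At that time BMPER was 3.70-fold higher with GSK591 than with MS023 (1.89 ± 0.352, adjusted p = 0.000148), a call lost without replicate 1 of GSK591 for 7 days (log2 1.18, adjusted p = 0.138). With total-count scaling that difference was 0.89, adjusted p = 0.0462. At 2 and 4 days BMPER was higher with GSK591 than with MS023 by 0.90 and 1.27 log2 units, and neither passed. GSK591 then Dex for 3 h gave 5.51 and 5.62 CPM, against 1.81 and 1.83 CPM with Dex alone (1.61 ± 0.365, adjusted p = 0.00149).

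SMAD6 (chromosome 15, 66702228 to 66782848, plus strand), an inhibitory SMAD, showed its highest level at 2 days of MS023. The libraries held 280.3 and 279.7 CPM there, against 125 and 140.4 CPM in untreated cells, a 2.11-fold rise (log2 1.08 ± 0.112, adjusted p = 1.12e-09). At 4 and 7 days of MS023 it stood at 137 and 141 and at 141 and 141 CPM, and the differences of 0.068 and 0.089 did not pass. This depends on the scaling: with total counts the differences were 1.75 at 2 days, 0.81 at 4 days (adjusted p = 0.00174) and 1.10 at 7 days (adjusted p = 1.86e-05). GSK591 gave 107 and 107 CPM at 2 days, 82.9 and 93.2 CPM at 4 days and 83.2 and 79.2 CPM at 7 days, all below the untreated libraries. The difference passed at 4 days (-0.59 ± 0.113, adjusted p = 0.000124) and 7 days (-0.71 ± 0.115, adjusted p = 1.06e-05), and the call at 4 days was lost with total-count scaling (log2 -0.18, adjusted p = 0.589). At 2 days the difference was -0.31 and did not pass, and with total-count scaling it was -0.023. Between the inhibitors SMAD6 was lower with GSK591, at -1.39 ± 0.114, -0.66 ± 0.113 and -0.80 ± 0.114 log2 units at 2, 4 and 7 days (adjusted p = 2.79e-12, 5.12e-05 and 1.28e-06), and at -1.77, -0.99 and -1.83 with total-count scaling.

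Dex lowered SMAD6 at 15 min where an inhibitor had been present for 7 days. After GSK591 it fell to 55.5 and 61.2 CPM (log2 -0.48 ± 0.118, adjusted p = 0.0161), and after MS023 to 91.1 and 107 CPM (-0.51 ± 0.112, adjusted p = 0.00428). Without inhibitor it stood at 108 and 109 CPM (-0.29 ± 0.113, adjusted p = 0.356, and 0.023 with total-count scaling). It thus lay below both untreated libraries there too, and whether its response at 15 min differed between backgrounds was not tested. At 3 h it was 68.0 and 54.1 CPM after GSK591 (-0.41 ± 0.117, adjusted p = 0.0151) and 106 and 132 CPM after MS023 (-0.25 ± 0.111, adjusted p = 0.158), of which the former passed. GSK591 then Dex stood 2.13-fold below Dex alone (-1.09 ± 0.116, adjusted p = 5.57e-10). Dex given together with MS023 held 205 and 171 CPM, against 126 and 134 CPM with Dex alone (0.53 ± 0.112, adjusted p = 0.028; 0.83 with total-count scaling). That call was lost without replicate 1 of Dex for 3 h (adjusted p = 0.226), without replicate 2 of Dex for 3 h (adjusted p = 0.118) and in a fit of the compared groups alone (adjusted p = 0.824). The fall at 15 min after GSK591 was lost with any 1 of its 4 libraries left out (adjusted p = 0.0547 to 0.203), with total-count scaling (adjusted p = 0.74) and in a fit of the compared groups alone (adjusted p = 0.0907), that at 15 min after MS023 without replicate 1 of MS023 for 7 days (adjusted p = 0.0624), without replicate 2 of MS023 for 7 days (adjusted p = 0.0621), without replicate 1 of MS023 then Dex for 15 min (adjusted p = 0.251) and with total-count scaling (adjusted p = 0.268), and that at 3 h without replicate 1 of GSK591 for 7 days (adjusted p = 0.149), without replicate 2 of GSK591 then Dex for 3 h (log2 -0.26, adjusted p = 0.362) and with total-count scaling (log2 -0.19, adjusted p = 0.724).

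SMAD7 (chromosome 18, 48919853 to 48952052, minus strand), the other inhibitory SMAD, was higher with 3 h of Dex. Untreated libraries held 28.6 and 38.6 CPM and Dex 3 h libraries 45.5 and 48.2 CPM, a log2 difference of 0.48 ± 0.126. That difference ran from 0.28 to 0.71 with 1 library left out, and the authors' deposited value is 0.22. After MS023, Dex for 3 h took SMAD7 from 30.8 and 29.3 to 39.1 and 47.0 CPM (0.52 ± 0.122, adjusted p = 0.00202). After GSK591 the values were 25.5 and 26.1 without and 33.8 and 26.4 CPM with Dex (0.22 ± 0.135, adjusted p = 0.355). Against Dex at 15 min the rise at 3 h was 0.38 ± 0.125 (adjusted p = 0.0411). The rise after MS023 was lost without replicate 2 of MS023 then Dex for 3 h (adjusted p = 0.114) and with total-count scaling (adjusted p = 0.232), and that against 15 min with any 1 of its 4 libraries left out (adjusted p = 0.0842 to 0.307), with total-count scaling (log2 0.23, adjusted p = 0.644), with no filter on low counts (adjusted p = 0.0655) and with DESeq2 (adjusted p = 0.133).

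In the TMM scaling SMAD7 was lower past the threshold at 3 of the times with an inhibitor alone, by less than 1 log2 unit. The differences were -0.46 ± 0.131 at 4 days of GSK591 (adjusted p = 0.00956), -0.38 ± 0.133 at 7 days of GSK591 (adjusted p = 0.0451) and -0.42 ± 0.127 at 4 days of MS023 (adjusted p = 0.0194), the last of reversed sign with total-count scaling. All 3 calls rest on the higher untreated library. The call at 4 days of GSK591 was lost without replicate 2 of the untreated cells (log2 -0.22, adjusted p = 0.429), without replicate 1 of GSK591 for 4 days (adjusted p = 0.102) and with total-count scaling (log2 -0.057, adjusted p = 0.889). That at 7 days was lost without replicate 2 of the untreated cells (log2 -0.15, adjusted p = 0.673), without replicate 1 of GSK591 for 7 days (adjusted p = 0.211), without replicate 2 of GSK591 for 7 days (adjusted p = 0.152), with DESeq2 size factors (adjusted p = 0.0593), with total-count scaling (adjusted p = 0.34) and with DESeq2 (adjusted p = 0.17). The call with MS023 was lost without replicate 2 of the untreated cells (log2 -0.18, adjusted p = 0.559), without replicate 1 of MS023 for 4 days (adjusted p = 0.223), reversed with total-count scaling (log2 0.31, adjusted p = 0.237), with no filter on low counts (adjusted p = 0.0501) and with DESeq2 (adjusted p = 0.0811). The other times did not pass, with -0.22 at 2 days of GSK591 and -0.057 and -0.16 at 2 and 7 days of MS023. With total-count scaling these MS023 values passed as rises, at 0.60 (adjusted p = 0.0277) and 0.84 (adjusted p = 0.000934). The authors' deposited value at 4 days of MS023 is -1.42. GSK591 then Dex for 3 h stood below Dex alone (-0.64 ± 0.128, adjusted p = 0.000302), a call lost with total-count scaling (adjusted p = 0.108).

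SMAD9 (chromosome 13, 36844831 to 36920765, minus strand), the receptor-regulated SMAD of the set, had 6 to 27 counts per library and passed no independent test. It held 1.11 and 0.806 CPM in untreated cells and 2.44 and 2.08 CPM after 3 h of Dex, a log2 difference of 1.24 ± 0.428 between groups that do not overlap. The authors' deposited log2 fold change for this comparison is 0.041.

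**Figure D2:**
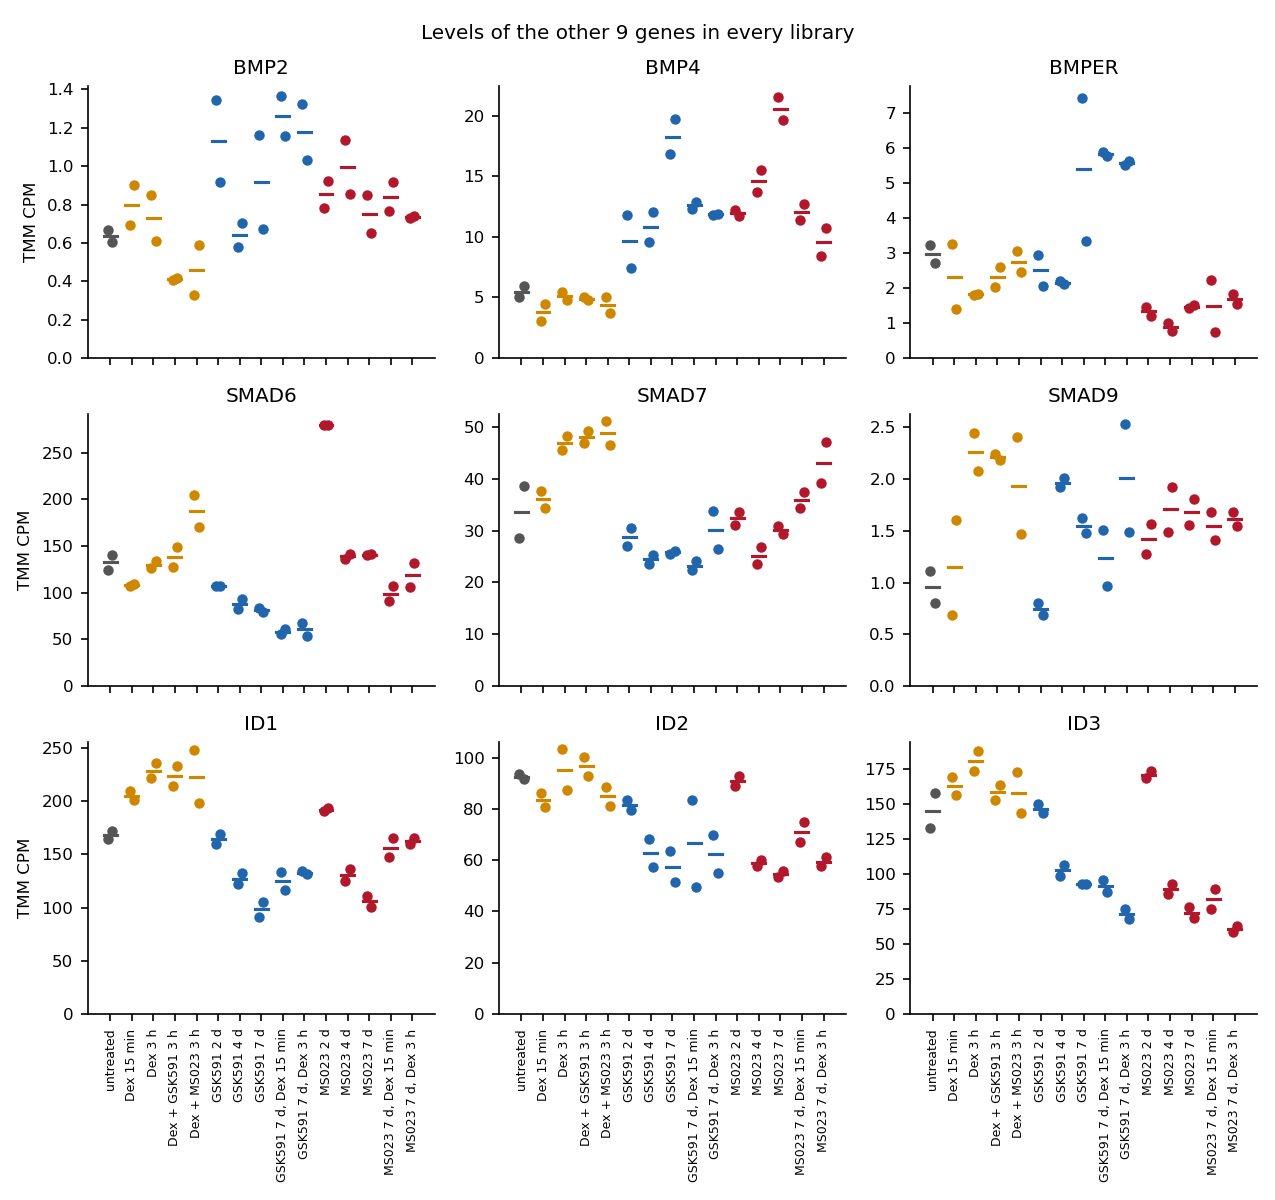
Levels (TMM CPM) of the other 9 genes in the 15 groups, with a point for each library and a line for the mean of 2. BMP4 is highest at 7 days of MS023, SMAD6 at 2 days of MS023, and ID3 is lowest after MS023 and 3 h of Dex.

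The ID genes encode helix-loop-helix proteins without a DNA-binding region, which tie up basic helix-loop-helix partners. In the TMM scaling all 3 were lower from 4 days of either inhibitor on. ID1 (chromosome 20, 31605283 to 31606515, plus strand) held 165 and 172 CPM in untreated cells, 91.6 and 106 CPM at 7 days of GSK591 and 111 and 101 CPM at 7 days of MS023. ID2 (chromosome 2, 8678845 to 8684453, plus strand) held 93.5 and 91.5 CPM in untreated cells, 63.5 and 51.3 CPM with GSK591 and 53.3 and 56.0 CPM with MS023 at 7 days. ID3 (chromosome 1, 23557918 to 23559794, minus strand) held 133 and 158 CPM, then 93.0 and 93.0 CPM with GSK591 and 76.4 and 68.3 CPM with MS023. In none of these do treated and untreated libraries overlap. An antisense gene, ID2-AS1, shares 38 exonic bases (1.72%) with ID2.

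At 7 days of GSK591 the log2 falls were -0.77 ± 0.106, -0.69 ± 0.157 and -0.64 ± 0.108 for ID1, ID2 and ID3 (adjusted p = 3.57e-07, 0.00387 and 1.99e-05). At 7 days of MS023 they were -0.67 ± 0.104, -0.76 ± 0.154 and -1.01 ± 0.108 (adjusted p = 6.45e-06, 0.00126 and 1.19e-09), but total-count scaling turned these 3 to 0.35, 0.26 and 0.0066, so with MS023 the direction is relative to the median gene. With GSK591 at 7 days the total-count values were -0.81, -0.69 and -0.68. At 4 days the falls were -0.41, -0.56 and -0.50 with GSK591 (adjusted p = 0.00408, 0.0133 and 0.000524) and -0.37, -0.65 and -0.70 with MS023 (adjusted p = 0.0109, 0.00494 and 3.1e-06), against 0.0086, -0.13 and -0.094 and 0.37, 0.10 and 0.032 with total-count scaling. At 2 days none passed in the TMM scaling, with -0.038, -0.18 and 0.012 for GSK591 and 0.19, -0.028 and 0.24 for MS023. With total-count scaling the values at 2 days were 0.25, 0.11 and 0.29 for GSK591, and 0.86, 0.65 and 0.90 for MS023, which passed as rises (adjusted p = 0.000619, 0.0111 and 0.000471). Between the inhibitors, in the TMM scaling, ID3 at 7 days was the 1 ID value past the threshold, higher with GSK591 (0.36 ± 0.109, adjusted p = 0.0253), a call lost without replicate 1 of GSK591 for 7 days (adjusted p = 0.141), without replicate 2 of GSK591 for 7 days (adjusted p = 0.127), without replicate 2 of MS023 for 7 days (adjusted p = 0.257), reversed with total-count scaling (log2 -0.68, adjusted p = 0.00318) and with no filter on low counts (adjusted p = 0.108). With total-count scaling ID1 (-1.16, adjusted p = 2.52e-06) and ID2 (-0.95, adjusted p = 0.000107) were lower with GSK591 at 7 days as well.

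Several of these ID calls rest on single libraries. With GSK591 at 4 days that of ID1 was lost without replicate 2 of the untreated cells (adjusted p = 0.0599), without replicate 1 of GSK591 for 4 days (adjusted p = 0.0761) and reversed with total-count scaling (log2 0.0086, adjusted p = 0.981), that of ID2 without replicate 1 of the untreated cells (adjusted p = 0.0945), without replicate 2 of the untreated cells (adjusted p = 0.0719), without replicate 2 of GSK591 for 4 days (adjusted p = 0.167) and with total-count scaling (log2 -0.13, adjusted p = 0.696), and that of ID3 without replicate 2 of the untreated cells (adjusted p = 0.0593) and with total-count scaling (log2 -0.094, adjusted p = 0.785). At 7 days of GSK591 the call of ID2 was lost without replicate 2 of GSK591 for 7 days (adjusted p = 0.088). With MS023 at 4 days that of ID1 was lost without replicate 1 of the untreated cells (adjusted p = 0.0508), without replicate 2 of the untreated cells (adjusted p = 0.112), without replicate 1 of MS023 for 4 days (adjusted p = 0.146) and reversed with total-count scaling (log2 0.37, adjusted p = 0.11), and that of ID2 without replicate 1 of the untreated cells (adjusted p = 0.059), without replicate 1 of MS023 for 4 days (adjusted p = 0.0558) and reversed with total-count scaling (log2 0.10, adjusted p = 0.699). The other ID calls at 4 and 7 days kept their side of the threshold with each library left out.

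**Figure D3:**
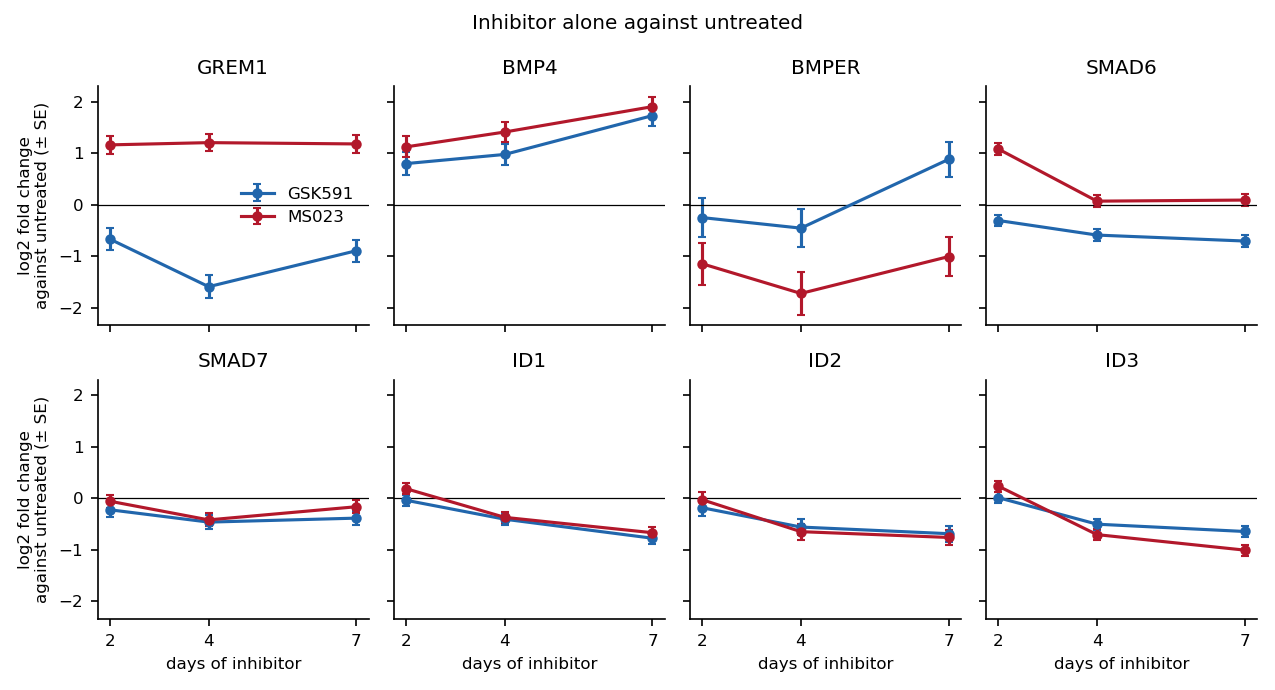
Log2 fold change against untreated cells (± SE) at 2, 4 and 7 days of GSK591 or MS023. GREM1 lies above 0 with MS023 (1.16 to 1.20) and below 0 with GSK591 (-1.59 to -0.67), BMP4 above 0 with both, and the ID genes below 0 with both from 4 days, in the TMM scaling.

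Dex raised ID1. It held 222 and 235 CPM after 3 h without inhibitor (log2 0.44 ± 0.104 from untreated cells), 134 and 131 CPM after GSK591 (0.43 ± 0.106, adjusted p = 0.0041; 0.65 with total-count scaling) and 159.7 and 166 CPM after MS023 (0.62 ± 0.104, adjusted p = 1.39e-05). At 15 min it had risen after MS023, to 147 and 165 CPM (0.56 ± 0.104, adjusted p = 0.000499). The differences at 15 min without inhibitor (0.28, adjusted p = 0.29) and after GSK591 (0.34, adjusted p = 0.083) did not pass. The former passed in the authors' deposited tables (0.33). ID2 passed in none of the Dex comparisons within a background, with 0.045 at 3 h without inhibitor, 0.12 after GSK591 and 0.12 after MS023. The rise of ID1 at 3 h after GSK591 was lost without replicate 1 of GSK591 for 7 days (adjusted p = 0.162), and that after MS023 with total-count scaling (adjusted p = 0.0632). At 15 min it was lost without replicate 2 of MS023 for 7 days (adjusted p = 0.0548), without replicate 2 of MS023 then Dex for 15 min (adjusted p = 0.057) and with total-count scaling (adjusted p = 0.645).

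ID3 lay on opposite sides of its Dex-free level with and without inhibitor. Without inhibitor it was higher at 3 h, at 173 and 188 CPM (log2 0.31 ± 0.106 from untreated cells). After GSK591 Dex lowered it to 75.2 and 67.8 CPM (-0.38 ± 0.110, adjusted p = 0.0173), and after MS023 it stood at 58.7 and 63.2 CPM (-0.25 ± 0.108, adjusted p = 0.145). The difference between responses was -0.69 ± 0.153 for GSK591 and -0.56 ± 0.152 for MS023. Both contain Dex at 3 h against untreated cells and are a description, with no p. With 1 library left out the value for GSK591 ran from -0.82 to -0.58, and with total-count scaling it was -0.64. The rise without inhibitor ran from 0.20 to 0.44 with 1 library left out. The fall after GSK591 was lost without replicate 1 of GSK591 for 7 days (adjusted p = 0.112), without replicate 2 of GSK591 for 7 days (adjusted p = 0.0869), without replicate 2 of GSK591 then Dex for 3 h (adjusted p = 0.225) and with total-count scaling (log2 -0.16, adjusted p = 0.756). Against Dex alone, ID3 stood 2.52-fold lower with GSK591 then Dex (-1.34 ± 0.110, adjusted p = 2.29e-13) and 2.96-fold lower with MS023 then Dex (-1.57 ± 0.109, adjusted p = 2.58e-15). With total-count scaling the latter was -0.73, adjusted p = 0.00263.

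ID1 and ID2 were also below Dex alone in these groups. With GSK591 then Dex the values were -0.79 ± 0.104 and -0.61 ± 0.156 (adjusted p = 1.61e-07 and 0.00859). With MS023 then Dex they were -0.49 ± 0.103 and -0.68 ± 0.154 (adjusted p = 0.000782 and 0.00415), which total-count scaling reversed to 0.35 and 0.17. The ID2 call with GSK591 was lost without replicate 1 of Dex for 3 h (adjusted p = 0.12), without replicate 2 of GSK591 then Dex for 3 h (adjusted p = 0.144) and with total-count scaling (adjusted p = 0.107). That with MS023 was also lost without replicate 1 of Dex for 3 h (adjusted p = 0.084) and without replicate 1 of MS023 then Dex (adjusted p = 0.0566).

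**Figure D4:**
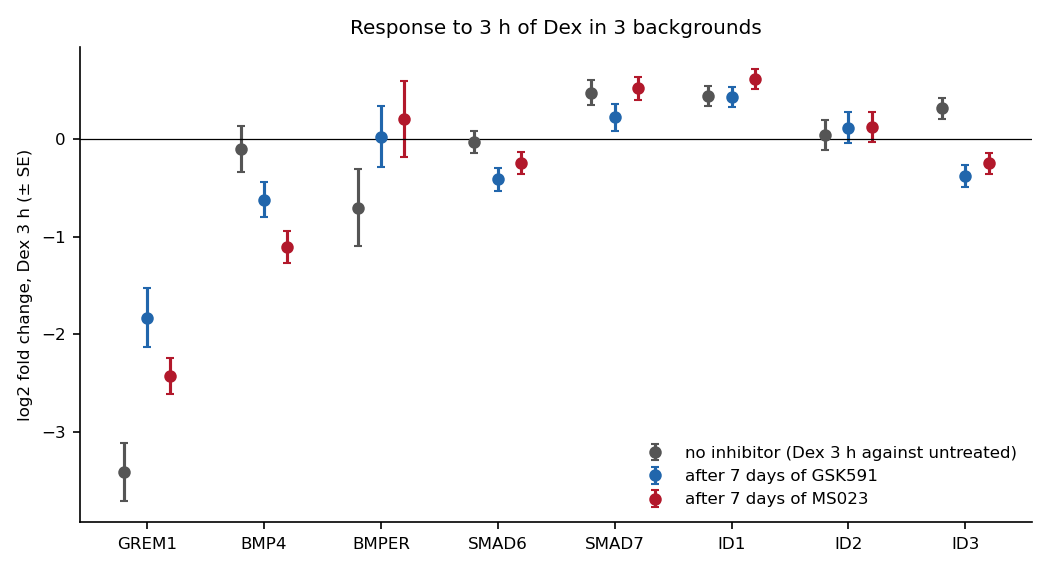
Log2 fold change after 3 h of Dex (± SE) in cells without inhibitor, after 7 days of GSK591 and after 7 days of MS023. GREM1 lies at -3.41, -1.83 and -2.42, ID1 above 0 in all 3, and ID3 above 0 without inhibitor (0.31) and below 0 after either (-0.38 and -0.25).

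Counted together, 4 of the 10 genes were called in Dex at 3 h against untreated cells, where 10.5% of all genes tested were, a description only. For Dex at 3 h 5 of 10 were called after GSK591 (9.85% of all genes) and 4 after MS023 (11.1%), and against Dex at 15 min 2 (10.8%). For Dex at 15 min the counts were 0 without inhibitor (1.26%, with 3 of the 10 at an unadjusted edgeR p under 0.05 and 0 called by DESeq2), 1 after GSK591 (2.09%) and 3 after MS023 (2.07%). GSK591 alone gave 2, 7 and 7 calls at 2, 4 and 7 days (5.64%, 17.2% and 13.2% of all genes), and MS023 alone 3, 7 and 5 (10.4%, 14.2% and 13.6%). GSK591 against MS023 gave 2, 2 and 4 (2.69%, 6.03% and 9.38%). Against Dex alone the counts were 7 for GSK591 then Dex (13.6%), 5 for MS023 then Dex (11.5%), 1 for MS023 given with Dex (0.196%) and 0 for GSK591 given with Dex (0%), the last with 0 at an unadjusted edgeR p under 0.05 and 0 by DESeq2. As a description, since it contains the comparison that chose the genes, the contrast for a changed Dex response called 1 gene for GSK591 (0.223%) and 0 for MS023 (0.223%), the latter with 4 at an unadjusted edgeR p under 0.05 and 1, ID3, by DESeq2. GREM1 is among the calls in each comparison of an inhibitor alone with untreated cells. It is also among those in Dex at 3 h against 15 min and in MS023 then Dex against Dex alone. All these comparisons reuse libraries that chose GREM1, so its calls there are a description. The genes were chosen with such results known, so these counts do not set them apart from others.

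Across the 15 group means, ID1 and ID2 (Pearson r = 0.88), ID2 and ID3 (0.907) and SMAD7 and ID1 (0.82) varied together, and BMP4 varied against ID1 (-0.879). These values describe 15 groups that share a scaling and treatments. By the same measure on log2(CPM + 0.5), the genes most like GREM1 among 11108 with a mean of at least 5 CPM were AGFG1 (0.977), YDJC (0.948), IRF2BP2 (0.93), L3HYPDH (0.927), CABLES1 (0.925), and 133 genes exceeded 0.8. Those most like ID1 were MIR3193 (0.952), LDHA (0.942), MTFR1L (0.919), POLG (0.917), KRT86 (0.915). MIR3193 begins 670 bases after the end of ID1 on the same strand.

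Of 50 further genes on the BMP lists (ligands, antagonists, receptors, SMADs and their ligases, and targets), 38 were tested. With Dex at 3 h, 3 rose and 1 fell after GSK591, and 4 rose and 5 fell after MS023. At 7 days 4 rose and 3 fell with GSK591, and 5 rose and 1 fell with MS023. The shares of all genes tested that were called are the 9.85%, 11.1%, 13.2% and 13.6% given above for these 4 comparisons. Their median log2 differences in these 4 comparisons were -0.056, -0.092, 0.060 and 0.15, beside 0.0047, -0.0024, -0.0049 and 0.0061 for all genes tested. Unlike those of the 10 genes, calls of the further genes named below were not checked with other scalings, DESeq2 or a library left out.

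Among the antagonists NBL1, which also binds BMPs, rose with 3 h of Dex from 1.63 and 2.68 to 10.5 and 8.14 CPM after GSK591 (log2 2.13 ± 0.261, adjusted p = 1.64e-08) and from 4.89 and 3.33 to 15.3 and 15.0 CPM after MS023 (1.88 ± 0.194, adjusted p = 1.22e-10), where GREM1 fell. FSTL3, a follistatin-like binder of activins, rose with Dex after GSK591 (0.47 ± 0.122, adjusted p = 0.00661) and after MS023 (0.72 ± 0.118, adjusted p = 8.47e-06). Before Dex FSTL3 had fallen with 7 days of GSK591 (-0.47 ± 0.122, adjusted p = 0.00518) and of MS023 (-0.86 ± 0.120, adjusted p = 7.01e-07). FSTL1 fell with Dex after GSK591 (-0.76 ± 0.182, adjusted p = 0.00305) and after MS023 (-0.57 ± 0.180, adjusted p = 0.0283). FST, which binds activins and some BMPs, rose with MS023 (1.96 ± 0.600, adjusted p = 0.0215) and fell when Dex was added (-1.90 ± 0.551, adjusted p = 0.0152), all at under 2 CPM. The fall of FSTL3 with MS023 is smaller than the shift of 1.01 that total-count scaling gives the median gene, so it is relative to that gene.

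Among receptors, BAMBI, a pseudoreceptor that damps the signal, rose with 7 days of MS023 from 25.5 and 28.7 to 48.8 and 44.2 CPM (log2 0.78 ± 0.154, adjusted p = 0.000593) and fell to 29.1 and 29.6 CPM when Dex was added for 3 h (-0.66 ± 0.149, adjusted p = 0.00207). ENG, the coreceptor endoglin, rose with 7 days of GSK591 from 9.79 and 9.27 to 14.4 and 18.8 CPM (0.79 ± 0.176, adjusted p = 0.00111). Of the targets, ATOH8 rose with Dex from 11.3 and 11.5 to 22.2 and 24.8 CPM after GSK591 (1.04 ± 0.149, adjusted p = 6.68e-07) and from 22.6 and 21.4 to 50.3 and 55.6 CPM after MS023 (1.27 ± 0.122, adjusted p = 1.39e-11). MSX1 rose at 7 days of GSK591 (1.27 ± 0.245, adjusted p = 0.000457) and of MS023 (0.80 ± 0.240, adjusted p = 0.0225), where the ID genes fell. SMAD1, which carries the BMP signal, fell with Dex after MS023 (-0.55 ± 0.166, adjusted p = 0.0209). TCF3, a helix-loop-helix partner of ID proteins, fell at 7 days of MS023 (-0.77 ± 0.188, adjusted p = 0.00315) and rose with Dex after GSK591 (0.63 ± 0.199, adjusted p = 0.0332). Its fall is likewise smaller than the shift of the median gene.

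The related TGF-beta branch was read beside these. TGFB2, a ligand, fell with Dex from 23.1 and 22.0 to 4.85 and 4.36 CPM after GSK591 (log2 -2.29 ± 0.195, adjusted p = 4.42e-13) and from 17.4 and 17.7 to 4.54 and 4.65 CPM after MS023 (-1.93 ± 0.178, adjusted p = 4.58e-12). SMAD3, which carries the TGF-beta signal, fell after GSK591 (-1.17 ± 0.116, adjusted p = 4.94e-11) and after MS023 (-0.98 ± 0.108, adjusted p = 8.19e-10). INHBB, an activin subunit, was lower with GSK591 than with MS023 at 7 days (-1.82 ± 0.160, adjusted p = 4.87e-12), as was GREM1, but it rose with Dex after MS023 (0.56 ± 0.125, adjusted p = 0.00113). TGFB1 rose at 7 days of GSK591 (0.50 ± 0.121, adjusted p = 0.00336) and of MS023 (0.40 ± 0.118, adjusted p = 0.0161), as did the receptor TGFBR2 (0.46 ± 0.159, adjusted p = 0.0464, and 0.63 ± 0.149, adjusted p = 0.00208).

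The authors' deposited tables of fold changes list 8 of the 10 genes (not ID2 or ID3), with mean counts that differ from those of the count table. Over 8 comparisons against untreated cells, 23 of 64 values passed the threshold in both the counts and the authors' deposited tables, all 23 in the same direction. Those of GREM1, and those of any gene for Dex at 3 h, are a description. A further 3 passed only in the counts and 11 only in the authors' deposited tables. BMPER passed only in the latter at 3 h of Dex (-1.15) and 7 days of GSK591 (0.83). At 2 and 7 days of MS023 it did so at -1.33 and -1.22. ID1 did so at 15 min of Dex (0.33). SMAD6 did so at 2 days of GSK591 (-0.38) and 4 and 7 days of MS023 (-0.45 and -0.38). SMAD7 did so at 2 days of GSK591 (-0.61) and 2 and 7 days of MS023 (-0.72 and -0.63). For GREM1 the authors' deposited table gives -3.05 at 3 h of Dex, -0.43, -1.09 and -0.57 at 2, 4 and 7 days of GSK591, and 1.37, 1.61 and 1.54 with MS023 (log2). For Dex at 3 h after 7 days of inhibitor it gives -3.36 with GSK591 and -1.16 with MS023. GSK591 then Dex thus lies below Dex alone there, and above it in the counts. The inhibitory SMADs differ more, and SMAD9, with 6 to 27 counts per library, the most. For SMAD9 at 3 h of Dex the authors' deposited table gives 0.041 (SE 0.34), where the counts give 1.24. The deposited fold changes over their SE do not give the deposited p-values. For BMP4 at 15 min of Dex they are -0.16, SE 0.262 and the authors' p = 0.0278. The deposited fold changes may thus be values drawn toward 0, an unlike measure for genes with few counts. How they were computed is not given in the sources used here. For SMAD6 at 2 days of MS023 the authors' deposited table gives 0.052 (adjusted p = 0.669), where the counts give 1.08. At 4 and 7 days of MS023 it gives -0.45 and -0.38, where the counts give 0.068 and 0.089. For SMAD7 at 4 days of MS023 the authors' deposited table gives -1.42, where the counts give -0.42. The rise of SMAD6 at 2 days of MS023 is thus found in the count table and not in the authors' deposited table.

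**Figure D5:**
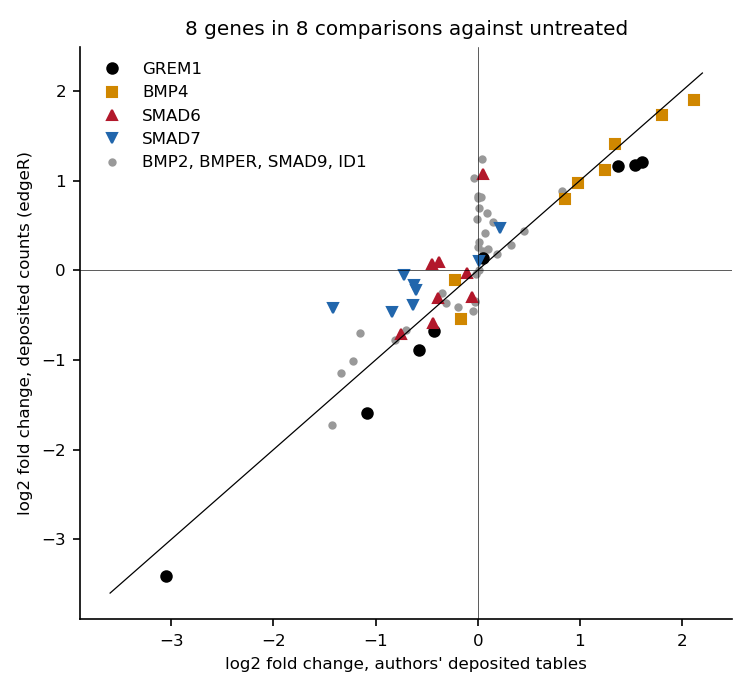
Log2 fold changes against untreated cells of 8 genes in 8 comparisons, from the authors' deposited tables and from the deposited counts by edgeR. SMAD6 at 2 days of MS023 lies at 0.052 in the former and 1.08 in the latter, while GREM1 at 3 h of Dex lies at -3.05 and -3.41.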

How the data were processed

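PRO-seq was read from 30 libraries of A549 cells, 2 in each of 15 groups taken from the labels. The authors deposited 1 table of raw counts per gene. The submitters' processing notes name Subread, featureCounts 2.0.1 and hg38; the aligner, the feature counted and the use of strand are not given in the sources used here. The authors also deposited 14 comparison tables of 28873 genes each which, per the file headers, hold the mean normalized signal (baseMean), the log2 fold change, its standard error (kept as a score) and p-values in DESeq2's column names. These were only read.

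All 58780 gene IDs matched GENCODE 29 (GRCh38). Counts were scaled by TMM, filtered with edgeR's filterByExpr (minimum count 10, minimum total 15; 22919 genes kept) and fitted with robust quasi-likelihood models over all 15 groups (15 residual degrees of freedom), with 22 contrasts adjusted by Benjamini-Hochberg at 0.05 (edgeR 4.0.16, limma 3.58.1, R 4.3.3). DESeq2 1.42.0 was an alternative. The steps were tested on simulated data. Library totals were 8441211 to 13069598 counts and the common coefficient of variation between replicates was 10.6%.

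The 10 genes and all gene lists were chosen with earlier results of these data known. Of the wider lists, genes called in at least 2 of 5 comparisons (Dex at 3 h after GSK591 or MS023, 7 days of GSK591 or MS023 against untreated cells, and GSK591 against MS023 at 7 days) are named, and for likeness the 5 genes with the highest correlation over group means. For likeness, genes averaged 5 CPM or more and shared no exon with the reference gene. Alternatives were other scalings, no filter, DESeq2, the compared groups alone, removal of mitochondrial and ribosomal RNA genes, a replicate block and leaving out each library.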

Additional observations from a re-analysis of the deposited data

Results flagged for a closer look

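The response of ID3 to 3 h of Dex lay apart between cells with and without 7 days of GSK591, by -0.69 ± 0.153 on the log2 scale (SE). ID3 was higher with Dex in both libraries without inhibitor and lower with Dex in both libraries after GSK591. The value is a description, with no p, because it contains Dex at 3 h against untreated cells, the comparison that chose GREM1. With 1 library left out it ran from -0.82 to -0.58, and with total-count scaling it was -0.64. Its call in the main fit was lost with total-count scaling and with some libraries left out. The rise without inhibitor ran from 0.20 to 0.44 with 1 library left out.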

How the results depend on the processing

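Of 72 called values of the 10 genes, alternatives other than leaving out a library left 456 recomputed values on the same side of the threshold and in the same direction, 37 weaker and 11 reversed. Leaving out 1 library left 218 the same and 74 weaker, with 0 reversed. The 72 include values that are given above as a description.

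All 11 reversals came with total-count scaling. ID1 turned to 0.0086 at 4 days of GSK591. At 4 days of MS023 SMAD7 turned to 0.31, ID1 to 0.37, ID2 to 0.10 and ID3 to 0.032. At 7 days of MS023 ID1 turned to 0.35, ID2 to 0.26 and ID3 to 0.0066. ID3 turned to -0.68 for GSK591 against MS023 at 7 days, and for MS023 then Dex against Dex ID1 turned to 0.35 and ID2 to 0.17.

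Of the 10 genes, total-count scaling called 0 for Dex at 15 min after GSK591 and 0 after MS023, 2 for Dex at 3 h after GSK591 and 2 after MS023, 1 for Dex at 3 h against 15 min and 1 against untreated cells, 2 for Dex with MS023, 1 at 2 days and 3 at 4 days of GSK591, 8 at 2 days of MS023, 9 for GSK591 against MS023 at 7 days and 0 for the changed Dex response with GSK591. Under that scaling 72 of all 22919 genes were called for Dex at 15 min after GSK591, 71 after MS023, 1363 and 1007 at 3 h, 807 for Dex at 3 h against 15 min, 1259 against untreated cells, 122 for Dex with MS023, 984 and 4631 at 2 and 4 days of GSK591, 9228 at 2 days of MS023, 16029 for GSK591 against MS023 at 7 days and 0 for the changed response. It moved the median gene by 0.67, 0.74 and 1.01 log2 units at 2, 4 and 7 days of MS023, and the share of calls that were higher at 7 days from 52.3% to 99.5%. DESeq2 called 1 for Dex at 3 h against 15 min, 2 for Dex with MS023, 1 at 2 days of GSK591 and 1 for the changed response with MS023. With no filter 1 was called for Dex at 3 h against 15 min and 2 for Dex with MS023. The compared groups alone gave 0 for Dex at 15 min after GSK591, 5 after MS023, 0 for Dex with MS023 and 4 for GSK591 against MS023 at 4 days. Apart from the median shift just given, the cause was not tested.

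With 1 library left out the counts were 0 to 1 for Dex at 15 min after GSK591, 1 to 2 after MS023, 2 to 4 for Dex at 3 h after GSK591, 1 for Dex at 3 h against 15 min, 1 to 4 against untreated cells, 0 to 2 for Dex with MS023, 0 to 1 and 3 to 6 at 2 and 4 days of GSK591, 4 to 7 at 4 days of MS023, 2 to 4 for GSK591 against MS023 at 7 days and 0 to 1 for the changed response with GSK591. The remaining library of a group was then assumed to vary like the other groups.

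Same-numbered replicates did not pair: over 105 pairs of groups their deviations correlated at -0.453 to 0.493 (median 0.0203). With the replicate block 2 genes were called for Dex with MS023 in place of 1, and no other count moved by over 1.5 times. Of the 5 genes most like GREM1, 2 remained with Spearman correlation and 3 over the 30 libraries; for ID1 these were 4 and 3. Depth limits BMP2, SMAD9 and BMPER most.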
